A study of Mus musculus with 6 samples.

Results

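Interferon response and major histocompatibility complex (MHC) class I genes were followed in EO771, a mouse mammary tumour line, without and with recombinant lipocalin-2 (LCN2) protein. The set was a fixed list of 34 gene symbols, of which 31 were found among the 19832 genes of the deposited table. Ifit3, Mx1 and H2-K1 had no row under their symbols and were not analysed here. The list was read as 2 subsets, an interferon subset (24 listed, 22 found) and an antigen presentation subset (10 listed, 9 found). Per the labels, 3 libraries came from EO771 cells that served as control and 3 from EO771 cells given LCN2. No dose, exposure time or vehicle is labelled, and nothing says that replicates were separate cultures, so each p-value reflects only how far these samples spread, and that spread may be technical.

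Interferons reach cells through paired receptor chains. Type I interferons use IFNAR1 and IFNAR2, and interferon gamma uses IFNGR1 and IFNGR2. Their signal is carried by JAK kinases and by STAT and IRF transcription factors to an element in target promoters, the interferon-stimulated response element (ISRE), or to a gamma-activated site (GAS). Antiviral effectors and the class I pathway are classical targets. A class I molecule is a heavy chain held by beta-2 microglobulin (B2m) and loaded in the endoplasmic reticulum with a peptide brought in by the TAP transporter, which lets cytotoxic T cells inspect a tumour cell.

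Promoter letters are shown for the class I chains, because these chains differed in direction, and for some interferon targets that were not called. The sequences are from RefSeq on GRCm38.p6, written 5′ to 3′ on the gene's strand and taken from the 250 bases before the annotated start. Capitals mark matches to the ISRE core GAAANNGAAA, to the GAS core TTCNNNGAA or to the kappaB consensus, on either strand, and matches can overlap.
B2m, chr2:122147518-122147600, plus strand: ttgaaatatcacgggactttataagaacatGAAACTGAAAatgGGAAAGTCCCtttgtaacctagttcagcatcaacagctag
H2-T22, chr17:36042894-36042985, minus strand: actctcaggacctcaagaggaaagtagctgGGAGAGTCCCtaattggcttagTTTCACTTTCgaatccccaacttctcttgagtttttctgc
H2-T23, chr17:36032786-36032855, minus strand: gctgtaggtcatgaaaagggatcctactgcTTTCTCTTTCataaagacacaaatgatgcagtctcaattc
H2-D1, chr17:35262893-35262963, plus strand: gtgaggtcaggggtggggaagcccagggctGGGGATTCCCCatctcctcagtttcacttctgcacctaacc
Isg15, chr4:156200845-156200926, minus strand: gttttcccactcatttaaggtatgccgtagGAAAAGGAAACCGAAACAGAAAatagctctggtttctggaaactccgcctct
Bst2, chr8:71537557-71537644, minus strand: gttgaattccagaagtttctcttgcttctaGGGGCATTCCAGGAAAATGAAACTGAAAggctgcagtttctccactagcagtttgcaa
Stat2, chr10:128270248-128270315, plus strand: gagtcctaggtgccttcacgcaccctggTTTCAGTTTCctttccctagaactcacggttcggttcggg
Ifit1, chr19:34640755-34640843, plus strand: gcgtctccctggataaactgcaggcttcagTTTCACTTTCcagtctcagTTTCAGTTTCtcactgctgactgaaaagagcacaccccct

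In B2m the ISRE core begins 139 bases before the start and a kappaB match begins 126 bases before it. H2-T22 holds the same 2 motifs, at 213 (kappaB) and 191 (ISRE) bases before its start. H2-D1 holds 2 overlapping kappaB matches, at 171 and 170 bases, and H2-T23 a single ISRE core, at 124 bases. Isg15 holds 3 overlapping ISRE cores between 78 and 66 bases before its start, and Ifit1 holds 2, at 104 and 85 bases. Promoters were matched for 28 of the 34 listed genes. An ISRE core lay in 31.2% of their 32 promoters, where 2.98% of all 32851 promoters of that length held it. The corresponding shares were 15.6% against 7.02% for the GAS core and 31.2% against 7.25% for the kappaB consensus. Such a match is a description of letters, not of binding. Only exact matches were counted, so a promoter without one, that of H2-D1 for the ISRE core among them, may still hold a variant of the element.

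The libraries held epithelial keratins at high level. Krt18 lay between 671 and 769 FPKM, Krt8 between 235 and 313 FPKM and Epcam between 12.4 and 17.1 FPKM, while Cdh1, the classical epithelial cadherin, was at most 0.209 FPKM. Some of these markers moved with treatment: Krt8 (log2 fold change -0.27) and Krt19 (-0.22) were called lower and Krt18 (0.17) higher. Of 5 fibroblast markers found Dcn was abundant, at 485 to 608 FPKM and so above Krt8, and was called higher (0.30). Pdgfra was not called (-0.15), Col1a1 was at most 0.134 FPKM, and Pdgfrb and Thy1 were listed at 0. The part of these markers in the results below was not tested. FPKM, a unit inferred here from the values, divides fragments by transcript length and by library size, and allows levels to be compared between genes. The pan-leukocyte gene Ptprc was at most 0.0868 FPKM, and 4 of the 5 mast cell markers found were listed at 0 in every library. The summed level of the 6 leukocyte markers found was 9.11 to 11.1 FPKM in control and 9.76 to 10.5 FPKM in LCN2 libraries, most of it Cd68. Itgam, below the mean for testing, had 1.09 to 1.34 FPKM in control and 0.631 to 0.839 FPKM in LCN2 libraries, without overlap. Library sums were 391569 to 410808 FPKM, and the number of reads behind them is unknown. On the first principal component LCN2 replicate 2 (4.34) was nearer the controls (-17.3 to -8.09) than were the other LCN2 libraries (15.7 and 16.5), and calls among the members are given with and without it where they change.

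The members were not called more often than all tested genes, and their median size of change was near that of all genes (0.13 for both). A gene that was not called is not thereby shown to be unchanged. Tests used limma on log2(FPKM + 1) after scaling between libraries, over the 10309 genes whose mean reached 1 FPKM, and a gene is called at a Benjamini-Hochberg adjusted p under 0.05. Of the 26 tested members 4 were called (15.4%), where 21.5% of all tested genes were. Without LCN2 replicate 2 the members called were 7, and without LCN2 replicate 1 or 3 only B2m was, while leaving out control replicates 1, 2 and 3 gave 2, 3 and 2. The share of all genes called moved too, to 30.7%, 2.60% and 4.64% without LCN2 replicates 2, 1 and 3. Without control replicates 1, 2 and 3 it was 6.22%, 17.4% and 4.49%. B2m and Ifngr1 were higher (11.8% of all genes were called higher), and H2-T22 and Ifi27l2a were lower (9.73% of all genes). Over all genes 1213 calls were higher and 1003 lower, a split that became 693 and 1680 with values as deposited and 950 and 1308 with column-sum scaling. The scaled values of the groups did not overlap in 12 of the 26 members (46.2%), near the 44.5% over all genes. The median log2 fold change was 0.07 in the interferon subset and 0.12 in the presentation subset, beside 0.0008 over all tested genes. The median size, regardless of sign, was 0.12 and 0.18 beside 0.13. The 1 FPKM added before the logarithm pulls fold changes of genes at low FPKM toward 0. Sizes are therefore not strictly comparable between genes of low and high level. In the interferon subset 2 of 18 tested members were called, and in the presentation subset 2 of 8.

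**Figure D1:**
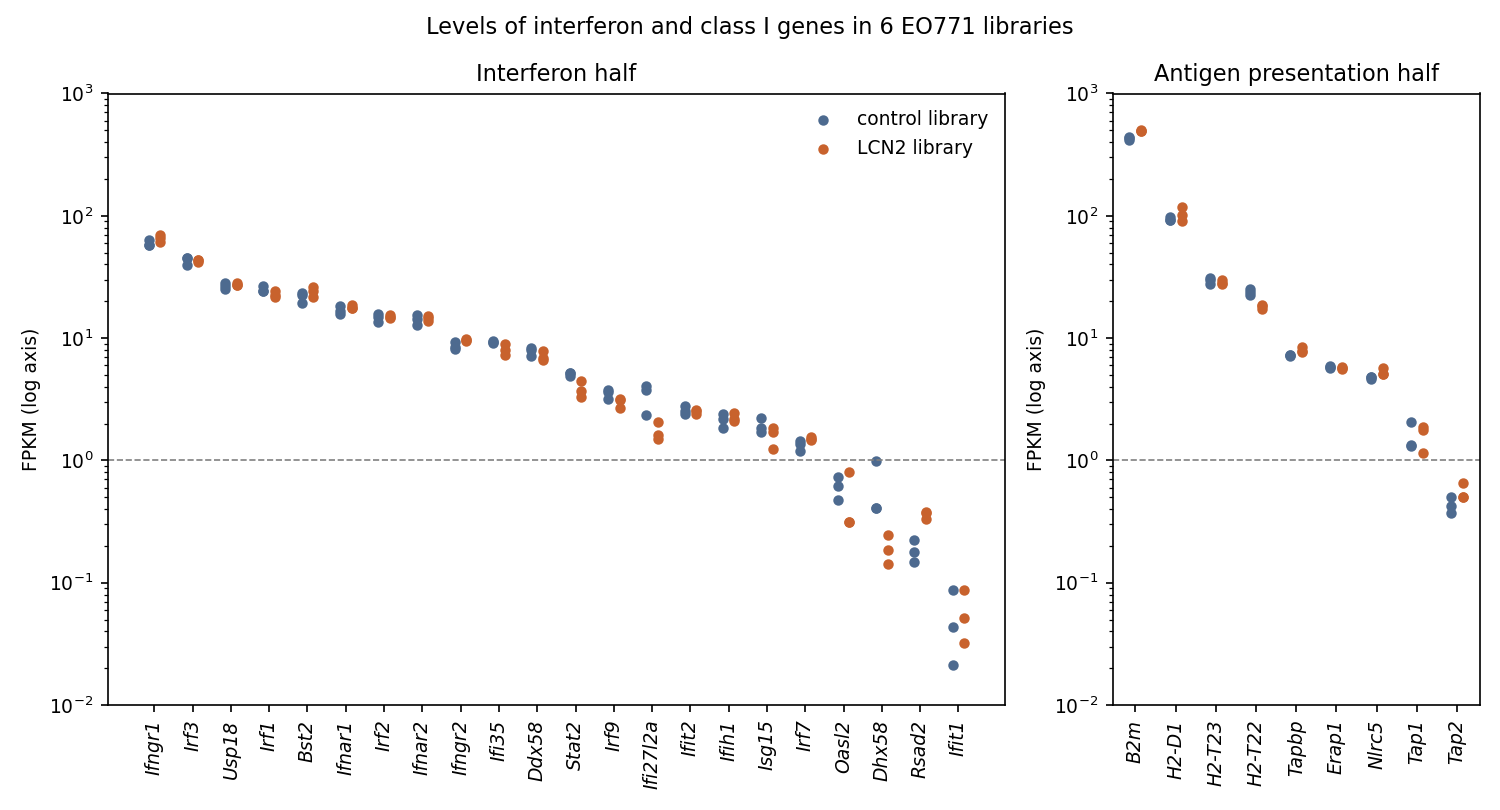
Level of each of the 31 genes found, in FPKM on a log axis, with 1 point per library (3 control and 3 LCN2 libraries per gene) and the dashed line at 1 FPKM, the mean required for testing. B2m stands highest, at 417 to 499 FPKM, and Ifit1 lowest, at no more than 0.0872 FPKM.

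Levels spanned a wide range that did not follow the subsets. B2m mRNA was the most abundant, at a mean of 461 FPKM over the 6 libraries, followed by the classical heavy chain H2-D1 at 99.0 FPKM. The highest member of the interferon subset was Ifngr1 at 62.8 FPKM, ahead of Irf3 (43.1 FPKM) and Usp18 (27.3 FPKM), a protease that removes ISG15 from proteins. At the other end Ifit1, Rsad2, Dhx58, Oasl2 and Tap2 had means under 1 FPKM and were not tested. The peptide transporter was thin beside the chains it serves, with Tap1 at 1.58 FPKM and Tap2 below the limit.

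All 4 receptor chains had positive log2 fold changes, and 1 was called. Ifngr1, the ligand-binding chain of the interferon gamma receptor (ENSMUSG00000020009, chromosome 10, 19591949 to 19610229, GRCm38), had 57.5, 64.0 and 57.8 FPKM in control replicates 1 to 3 and 66.4, 61.5 and 69.5 FPKM in LCN2 replicates 1 to 3. As deposited, control replicate 2 lay above LCN2 replicate 2; after scaling, all LCN2 libraries lay above all controls. The means were 59.8 ± 3.64 and 65.8 ± 4.05 FPKM (SD, n = 3 each), a log2 fold change of 0.20 (SE 0.06, limma adjusted p = 0.045). A difference in RNA per cell and a shift in the share of cells that express a gene cannot be told apart in such bulk libraries.

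The Ifngr1 call was fragile. It was lost with values as deposited (adjusted p = 0.15) and without any single library other than LCN2 replicate 2: limma gave adjusted p = 0.12, 0.058 and 0.13 without control replicates 1, 2 and 3, and 0.14 and 0.13 without LCN2 replicates 1 and 3. Without LCN2 replicate 2 it was 0.0087. Its partner Ifngr2 had 8.65 ± 0.559 FPKM in control and 9.66 ± 0.248 FPKM in LCN2 cells, with no overlap, and did not pass (log2 fold change 0.20, adjusted p = 0.061). Ifnar1 (0.15, 95% interval 0.03 to 0.28, adjusted p = 0.073) and Ifnar2 (0.09, interval -0.09 to 0.27) of the type I receptor did not pass either.

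**Figure D2:**
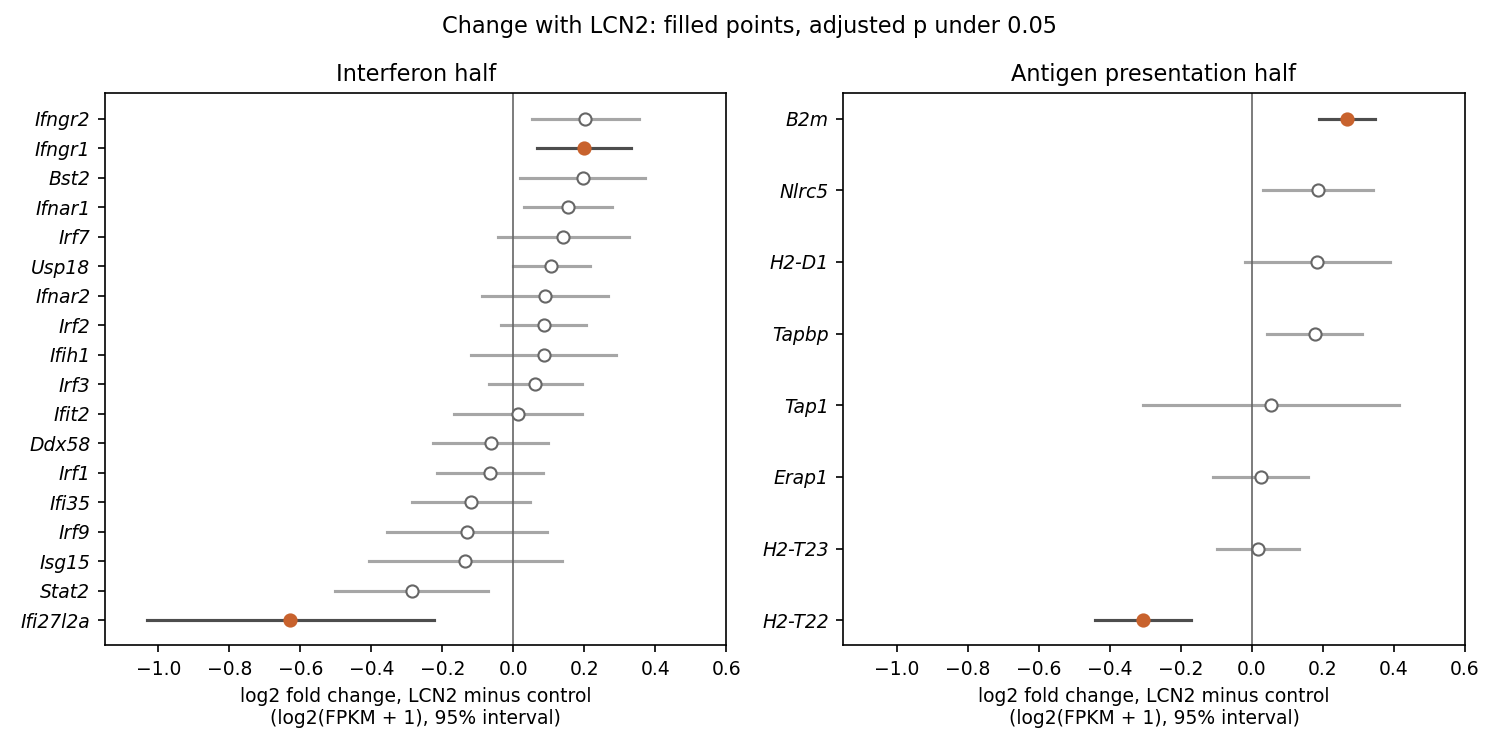
Log2 fold change (LCN2 minus control, log2(FPKM + 1)) of the 26 tested genes by subset, with the 95% interval of limma as a bar. Filled points mark the 4 called genes, and all but Ifi27l2a lie within 0.31 of 0.

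None of the 6 transcription factors of the list was called. STAT2, which acts with IRF9 at the ISRE, came closest. Stat2 had 4.93, 5.17 and 5.14 FPKM in controls and 3.73, 4.50 and 3.27 FPKM in LCN2 libraries, so the groups did not overlap. The log2 fold change was -0.29 (95% interval -0.50 to -0.07, adjusted p = 0.062). The call was made without LCN2 replicate 2 (-0.38, adjusted p = 0.013) and with values as deposited (adjusted p = 0.039). Irf9 had 3.52 ± 0.315 and 2.99 ± 0.280 FPKM (-0.13, interval -0.35 to 0.09).

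Irf3 and Irf7 turn virus sensing into interferon transcription. Irf3 held 39.3 to 45.1 FPKM in controls and 42.0 to 43.8 FPKM with LCN2, an interval of the log2 difference of -0.07 to 0.19. Irf7, itself induced by interferon in many cells, was near the limit for testing, at 1.34 ± 0.129 and 1.51 ± 0.0446 FPKM (0.14, interval -0.04 to 0.32). Irf1, an activator of class I promoters, had a change of -0.07 (interval -0.22 to 0.08), and Irf2, which competes with it for the same element, 0.09 (interval -0.03 to 0.20). None of these 4 genes passed, and their scaled values overlapped between groups for Irf1 and Irf3 but not for Irf2 and Irf7.

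The cytoplasmic RNA sensors were present at low level. Ddx58, which encodes RIG-I, had 7.79 ± 0.531 FPKM in control and 7.10 ± 0.618 FPKM in LCN2 cells. Ifih1, which encodes MDA5, had 2.14 ± 0.292 and 2.23 ± 0.178 FPKM, and neither passed (adjusted p = 0.53 and 0.51). Dhx58 (LGP2, a regulator of both) was below the level for testing. Its values were 0.411, 0.410 and 0.998 FPKM in controls and 0.185, 0.247 and 0.143 FPKM in LCN2 libraries. The groups did not overlap, and the two-sided exact permutation p was 0.1, the lowest that groups of 3 can reach.

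Among the antiviral effectors only Ifi27l2a, a small interferon-induced membrane protein gene (ENSMUSG00000079017, chromosome 12, 103442167 to 103443680), was called in the fit of all 6 libraries. Control libraries held 4.04, 2.36 and 3.78 FPKM and LCN2 libraries 1.61, 2.07 and 1.5 FPKM. The groups did not overlap, though control replicate 2 was close to LCN2 replicate 2. This was the largest difference of the 26 tested genes, at -0.63 (SE 0.17, interval -1.03 to -0.22, adjusted p = 0.041). Leaving out replicate 1 or 3 of the controls gave limma adjusted p = 0.12 in both fits, and leaving out replicate 1 or 3 of the LCN2 libraries gave 0.12 and 0.13, so the call rests on each of these 4.

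Isg15 and Ifit2 were low and did not pass, and Ifit1 was below the level for testing. Isg15, a ubiquitin-like protein that is attached to other proteins, had 1.72, 1.84 and 2.22 FPKM in controls and 1.70, 1.85 and 1.24 FPKM with LCN2 (-0.14, interval -0.41 to 0.14). Ifit2, which binds viral RNA, had 2.58 ± 0.209 and 2.49 ± 0.102 FPKM (0.01, interval -0.17 to 0.19). Ifit1, of the same family, was at 0.0211 to 0.0867 FPKM in controls and 0.0320 to 0.0872 FPKM with LCN2 (exact permutation p = 0.7). The ISRE-bearing promoters of Isg15 and Ifit1 shown above belong to transcripts at no more than 2.22 FPKM in any library.

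Rsad2, which encodes viperin, was the 1 effector with all LCN2 libraries above all controls as deposited. It had 0.148, 0.223 and 0.178 FPKM in controls and 0.331, 0.381 and 0.369 FPKM with LCN2 (two-sided exact permutation p = 0.1). Fitted with genes down to a mean of 0.1 FPKM it passed (log2 fold change 0.22, limma adjusted p = 0.047). The 1 FPKM added before the logarithm pulls this fold change toward 0, as the means were 0.183 and 0.360 FPKM. Its level was at most 0.381 FPKM, and the depth behind it is unknown. Oasl2, a relative of the oligoadenylate synthetases, overlapped between groups (exact permutation p = 0.6).

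Other effectors were better expressed. Bst2 (tetherin, which holds budding virions to the cell surface) had 19.6, 23.3 and 22.7 FPKM in controls and 24.3, 26.1 and 21.9 FPKM with LCN2 (0.20, interval 0.02 to 0.37, adjusted p = 0.099). LCN2 replicate 3 lay inside the control range. Usp18 had 26.8 ± 1.62 and 27.7 ± 0.594 FPKM (0.11, adjusted p = 0.13), and Ifi35, an interferon-induced leucine zipper protein, 9.25 ± 0.204 and 8.10 ± 0.800 FPKM (-0.12, adjusted p = 0.25). The 6 tested effectors split into 3 with a positive and 3 with a negative change, the sign of Ifit2 turning negative with values as deposited and with column-sum scaling.

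**Figure D3:**
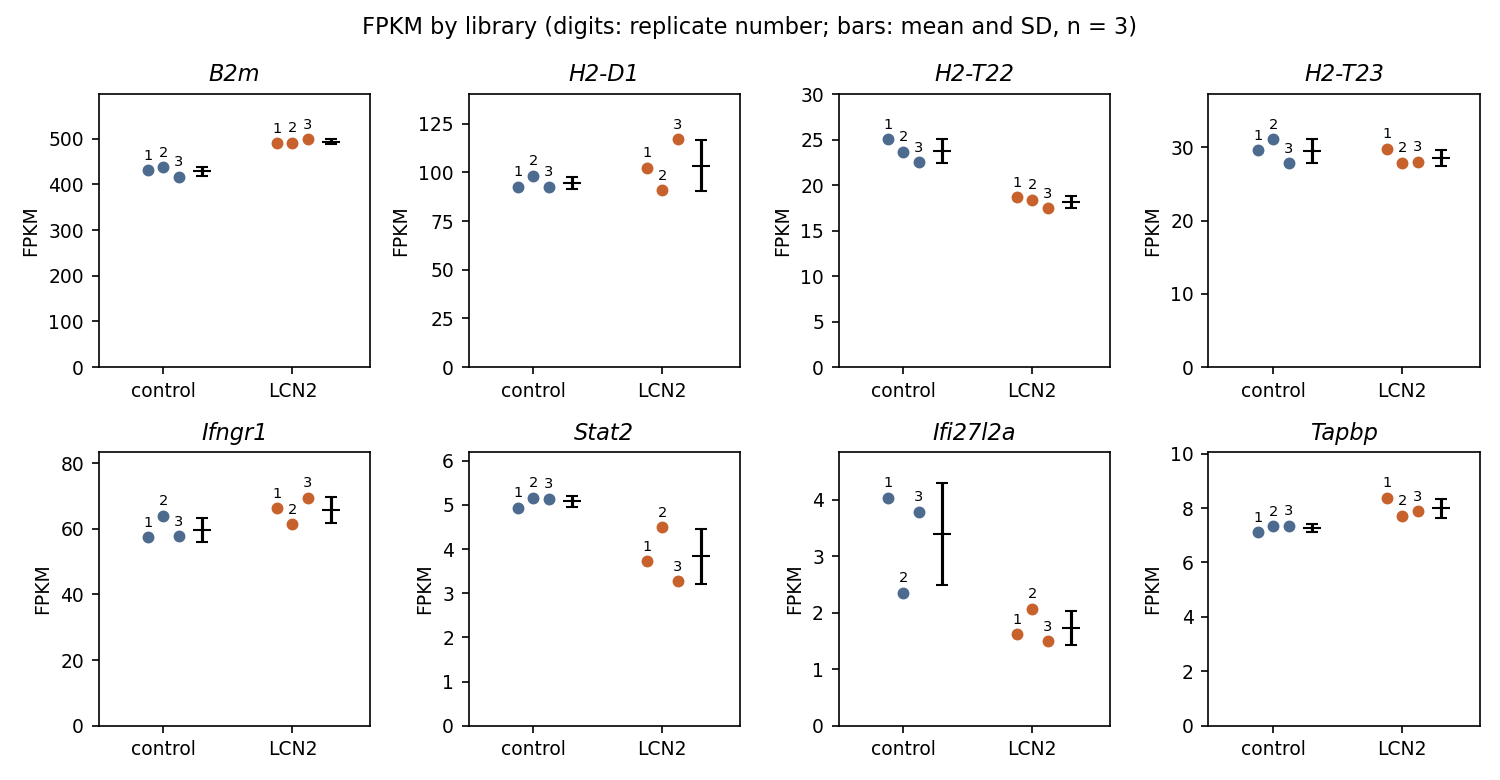
FPKM in each library for 8 genes of both subsets, with axes from 0, the replicate number above each point and the mean with SD (n = 3) at the side. B2m in LCN2 libraries (491, 491 and 499 FPKM) lies above all controls, and H2-T22 (18.7, 18.4 and 17.5 FPKM) lies below them.

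In the presentation subset the light chain rose while a non-classical heavy chain fell. B2m (ENSMUSG00000060802, chromosome 2, 122147686 to 122153083) had 431, 438 and 417 FPKM in controls and 491, 491 and 499 FPKM in LCN2 libraries. The groups were well apart, and the spread within each was small. Means were 428 ± 10.5 and 494 ± 4.68 FPKM, a log2 fold change of 0.27 (SE 0.03, interval 0.19 to 0.35, adjusted p = 0.0058). B2m was the only member called under every alternative tried, the 6 fits without 1 library among them (limma adjusted p of up to 0.037 in those 6).

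H2-T22, a non-classical heavy chain known as a ligand of some gamma-delta T cells (ENSMUSG00000056116, chromosome 17, 36037128 to 36042747), had 25.1, 23.7 and 22.5 FPKM in controls. In LCN2 libraries it had 18.7, 18.4 and 17.5 FPKM, all below the lowest control. The log2 fold change was -0.31 (SE 0.06, interval -0.44 to -0.17, adjusted p = 0.015). Without LCN2 replicate 1 the adjusted p was 0.056 and without LCN2 replicate 3 it was 0.063 (limma). Of the 50-base windows of its longest coding transcript, 44.7% also occur in transcripts of another gene, mostly H2-T10, which had no row. Its exons also overlap an antisense gene, so reads of H2-T22 may have been shared with other genes.

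The classical heavy chain H2-D1 had 92.7, 98.3 and 92.5 FPKM in controls and 102, 90.9 and 117 FPKM with LCN2. LCN2 replicate 2 lay below every control, and the gene did not pass (0.19, interval -0.02 to 0.39, adjusted p = 0.16). Without that library the difference was 0.28 with a limma adjusted p of 0.017, and without LCN2 replicate 3 it was 0.09 with 0.38. H2-T23, which encodes the Qa-1 molecule that engages inhibitory receptors of natural killer cells, had 29.5 ± 1.65 and 28.6 ± 1.08 FPKM (0.02, interval -0.10 to 0.13). Windows shared with other genes made up 14.3% of H2-D1 and 28.8% of H2-T23, so their levels are uncertain in the same way. B2m shared none.

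None of the 3 tested genes of the loading machinery was called with all 6 libraries. Tapbp (tapasin, which bridges the heavy chain and the transporter) had 7.10, 7.34 and 7.35 FPKM in controls and 8.38, 7.71 and 7.87 FPKM with LCN2, without overlap. Its log2 fold change was 0.18 (interval 0.04 to 0.31, adjusted p = 0.064), and it passed without LCN2 replicate 2 (0.21, adjusted p = 0.043). Tap1, 1 of the 2 transporter chains, varied most within groups, from 1.31 to 2.04 FPKM in controls and from 1.14 to 1.86 FPKM with LCN2 (0.05, interval -0.31 to 0.41). Tap2 had 0.435 FPKM in control and 0.554 FPKM in LCN2 cells on average (exact permutation p = 0.3). Erap1, an aminopeptidase that trims peptides to length, had 5.82 ± 0.132 and 5.69 ± 0.107 FPKM (0.03, interval -0.11 to 0.16).

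Nlrc5, the transactivator of class I genes, had 4.77, 4.77 and 4.60 FPKM in controls and 5.11, 5.07 and 5.66 FPKM with LCN2. All LCN2 libraries were above all controls, and the gene did not pass (0.19, interval 0.03 to 0.34, adjusted p = 0.079). Of the 8 tested members of this subset, 7 had a positive log2 fold change and H2-T22 a negative one. The signs of H2-T23 and Erap1 turned negative with values as deposited, that of H2-T23 also with column-sum scaling and quantile normalization, and that of Tap1 without control replicate 1 or 2 or LCN2 replicate 1 or 2.

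**Figure D4:**
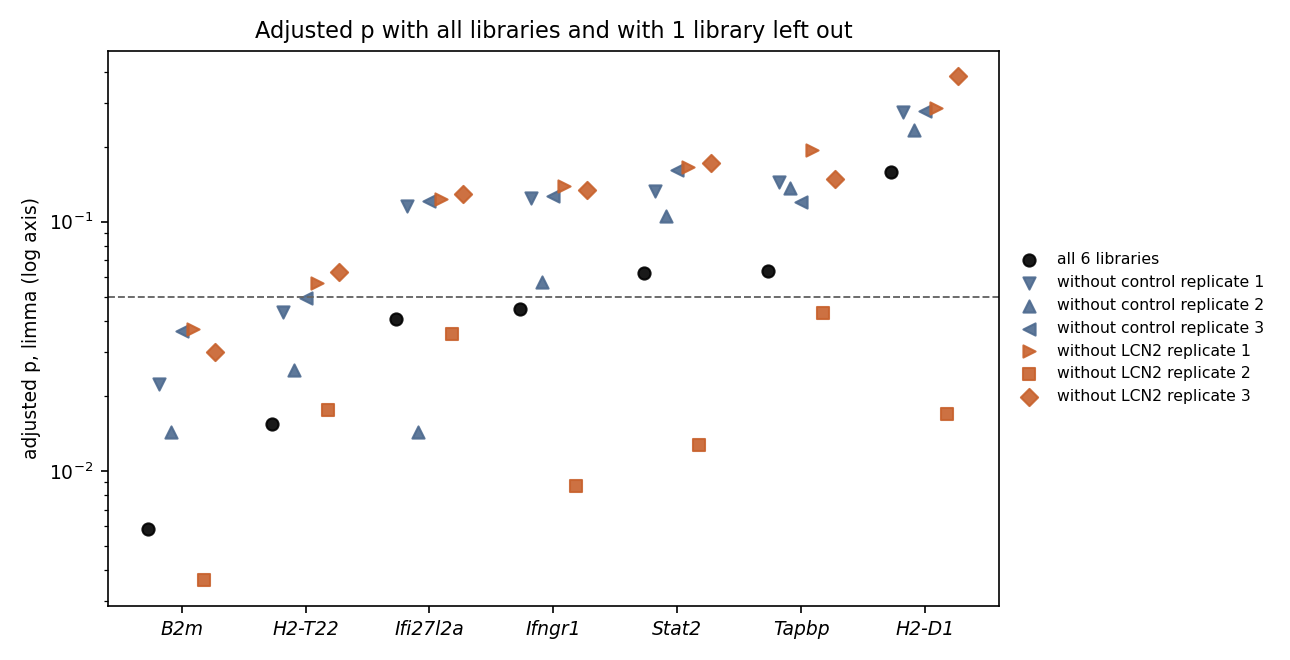
Adjusted p of limma on a log axis for 7 genes, with all 6 libraries (black circle) and with each library left out (blue, a control library; orange, an LCN2 library), and the dashed line at 0.05. B2m stays below the line throughout, and Stat2, Tapbp and H2-D1 fall below it only without LCN2 replicate 2.

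Beside the promoter letters, changes went both ways. Of the 7 tested members with an ISRE core, 4 had a positive and 3 a negative log2 fold change (range -0.31 to 0.27, median 0.02), and 2 were called, where 21.5% of all genes were. The 16 tested members with a matched promoter and no such core ranged from -0.13 to 0.20 (median 0.07), with 1 called. Of the 8 tested with a kappaB match, 6 were positive and 2 negative (median 0.14), with 2 called. The 15 without one had a median of 0.05, with 1 called. Of the 5 tested with a GAS core, 4 were positive and 1 negative (median 0.09), with 0 called. The 18 without one had a median of 0.06, with 3 called. B2m and H2-T22, which carry both an ISRE core and a kappaB match, were the highest and the lowest of the 23, while Bst2 (0.20) and Irf2 (0.09), which carry both as well, were not called.

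Outside the 34 genes, the wider interferon pathway was read from lists set down with it. Interferon ligands were read only in part: of the 18 found, 17 were listed at 0 in every library (Ifnb1, which encodes interferon beta, Ifne and Ifnk were not analysed here), and Ifnz, chosen after its values were seen, reached at most 0.184 FPKM. In signal transduction 4 of 18 tested genes were called higher and 1 lower (27.8% called, beside 21.5% of all genes). Ptpn11 (0.28, adjusted p = 0.013) and Ptpn2 (0.35, adjusted p = 0.021), phosphatases of which PTPN2 acts on JAK and STAT proteins, rose. Irf2bpl (0.42) rose too, and Pias4, a SUMO ligase of the family that restrains STATs, fell by 0.35 on the log2 scale. In nucleic acid sensing 2 of 10 were called (20%, near the 21.5% of all genes), both higher: the kinase gene Ikbke rose from 22.5 ± 1.27 to 28.9 ± 0.524 FPKM (0.41, adjusted p = 0.0082) and the adaptor gene Traf3 by 0.29.

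Of 41 other tested interferon-induced genes, 2 were called higher and 3 lower (12.2%, beside 21.5% of all genes). Cd274, which encodes the checkpoint ligand PD-L1, rose from 9.30 ± 2.08 to 18.6 ± 3.09 FPKM (1.00, adjusted p = 0.010). Rnf213, a large ubiquitin ligase, rose by 0.22. Sp100, a nuclear body protein, fell from 11.4 ± 0.471 to 7.28 ± 0.808 FPKM (-0.53, adjusted p = 0.0082), and Lgals9, a galectin, fell from 104 ± 0.835 to 75.6 ± 8.0 FPKM (-0.39, adjusted p = 0.013). The median of this list was -0.07, with 28 of the 41 below 0. Cd274 was not called without LCN2 replicate 1 (adjusted p = 0.053), and Lgals9 not without control replicate 3 (0.054) or LCN2 replicate 1 (0.061, limma).

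Around the class I molecule, Procr and H2-Q1 were the 2 called among 5 tested heavy chains and relatives (all genes, 21.5%). Procr, a class I-like receptor for protein C, rose from 55.7 ± 2.97 to 76.6 ± 4.28 FPKM (0.51, adjusted p = 0.0042), and H2-Q1 fell from 5.23 ± 0.211 to 2.85 ± 0.523 FPKM (-0.65, adjusted p = 0.010). H2-Q1 shares windows with H2-D1, and its level is uncertain for that reason. Of 11 folding and peptide-editing genes, Hspa5 was higher (0.40) and Calr lower (-0.14), a share of 18.2%. Of 8 genes for factors that sit on class I promoters, Nfyb (0.46, adjusted p = 0.0058) and Rfx5 (0.32, adjusted p = 0.027) rose, a share of 25%. The last 2 shares are near that of all genes.

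Of the 3 interferon-inducible proteasome subunits, 2 were nearly absent beside their constitutive counterparts, and Psmb10 was present at 8.32 ± 0.0751 FPKM in control cells. Psmb8 had 0.159, 0.0957 and 0.265 FPKM in controls and 0.442, 0.333 and 0.285 FPKM with LCN2, without overlap and below the mean for testing. Psmb9 was at most 0.735 FPKM (all 3 chosen after their values were seen). Of the constitutive counterparts, Psmb5 (that of Psmb8) held 130 to 138 FPKM and Psmb6 (that of Psmb9) 20.1 to 75.4 FPKM. Psmb7 (that of Psmb10) held 158 to 169 FPKM, so Psmb10 too was well below its counterpart. The proteasome activator genes Psme1 (46.9 ± 1.03 and 48.9 ± 2.83 FPKM) and Psme2 (40.0 ± 4.85 and 36.6 ± 3.18 FPKM) were expressed and not called, and 0 of 3 tested genes of that list were (limma; 0 at an unadjusted p under 0.05 as well). In class II presentation the transactivator gene Ciita, also chosen after its values were seen, was listed at 0 in every library. Cd74, the class II invariant chain, rose from 0.936 ± 0.219 to 1.97 ± 0.213 FPKM (0.66, limma adjusted p = 0.011), as 1 of 2 tested genes of its list. Its control mean was under 1 FPKM, so with all 6 libraries it reached the mean for testing only through the LCN2 group. The Cd74 call carries that limit.

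Calls among these neighbours, like those over all genes, also depended on single libraries. Without LCN2 replicate 2 the counts were 5 of 18 in signal transduction, 3 of 10 in nucleic acid sensing, 7 of 41 among the other interferon-induced genes, 3 of 11 in folding and 2 of 8 among promoter factors. Without LCN2 replicate 1 they were 0, 1, 1, 0 and 1, without LCN2 replicate 3 they were 0, 1, 3, 0 and 1, and without control replicate 3 they were 0, 1, 2, 0 and 1. Without control replicate 1 they were 2, 1, 3, 0 and 1, and without control replicate 2 they were 4, 2, 6, 2 and 1. Of all tested genes, 30.7%, 2.60% and 4.64% were called without LCN2 replicates 2, 1 and 3. Without control replicates 1, 2 and 3 the shares of all genes were 6.22%, 17.4% and 4.49%. Ikbke, Sp100, Procr, H2-Q1 and Nfyb were called whichever library was left out, and so was Cd74, with the limit on its entry given above. Ptpn2, Irf2bpl, Traf3 and Hspa5 lost their calls when replicate 1 or 3 of either group was left out (limma adjusted p of up to 0.088), as did Calr (up to 0.13). Socs3, a feedback inhibitor of JAK signalling counted among the 4 higher genes above, was called in 0 of the 6 (up to 0.13). Samd9l, counted among the 3 lower interferon-induced genes, was called in 2 of the 6 (both named here after their values were seen). Rfx5 and Rnf213 were called in 1 of the 6 such fits, that without LCN2 replicate 2. Ptpn11 and Pias4 missed the threshold in 3 of these fits, those leaving out replicate 3 of the controls or replicate 1 or 3 of the LCN2 group, with limma adjusted p of up to 0.062 and 0.061.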

How the data were processed

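RNA of 3 control and 3 LCN2 samples was sequenced with an mRNA library kit, 1 library each. The genome build was GRCm38, per the submitters' processing notes; the aligner, quantifier and strand setting were not given in the sources used here. The deposited table is named for raw counts, but 0% of its values above 0 were whole within 1e-9, and its values, deposited by the authors, were treated as FPKM, inferred from the values. Read depth is unknown. From them log2(FPKM + 1) was computed after unweighted trimmed-mean (TMM) scaling (trims 0.3 and 0.05) and fitted with limma 3.58.1 (R 4.3.3, variance trend, two-sided) for genes whose mean reached 1 FPKM, after a check on simulated data. Means ± SD are of deposited FPKM. Coordinates and exon overlaps are from GENCODE M21; 14 of 31 members overlap exons of another gene, Irf3, Irf9, H2-T22, Tap1 and Tapbp among them, as do Ikbke, Sp100, Rnf213, Cd274, Rfx5 and Cd74, and without known strand use such reads cannot be told apart. The members, lists and scaling were chosen with earlier results of these data known. Named are all members and, per wider list, up to 4 called genes by adjusted p, or, where none was called, 2 of the highest level. Alternatives were pseudocount, filter, scaling, trend, replicate term and leaving out each library.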

Additional observations from a re-analysis of the deposited data

How the results depend on the processing

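Of the 4 called members, B2m kept its call in all 16 alternatives, H2-T22 in 13, Ifi27l2a in 10 and Ifngr1 in 5. The calls in the interferon subset fell from 2 to 1, that of Ifi27l2a, with column-sum scaling, with quantile normalization and without a variance trend. Of all genes, 21.9%, 22.1% and 18.8% were called in these fits. With no filter 10.5% of all genes were called. Neither of the 2 interferon calls held then, and the 1 call was Rsad2, which was not tested in the main fit. Over all genes 2216 calls became 641 and 463 without control replicates 1 and 3, and 268, 3160 and 479 without LCN2 replicates 1, 2 and 3. Leaving out 1 library gave 0 to 3 in the interferon subset, 1 to 4 in the presentation subset, and 2 to 3 non-overlapping members among the 5 below the limit. Under the scalings of these 5, 3 members did not overlap in place of 2. Of these scalings, that by TMM was chosen after seeing the data. The counts of the wider lists under each alternative were also added after seeing the data. The labels do not say whether replicate numbers pair the samples. Correlations of same-numbered deviations were -0.22, -0.26 and 0.0086, and those of other numbers ran from -0.14 to 0.32. With 3 libraries per group such correlations cannot settle it. With the replicate number as a block 262 genes, 0 interferon members and 1 presentation member (B2m) were called. Members that were not called changed sign: with values as deposited Irf3 (-9.1e-05), Ifit2 (-0.0325), H2-T23 (-0.0442) and Erap1 (-0.0288), with column-sum scaling Ifit2 (-0.0081) and H2-T23 (-0.0111), and with quantile normalization H2-T23 (-0.0106). When 1 library was left out, Ifit2 ranged from -0.0168 to 0.0664, H2-T23 from -0.0142 to 0.0425 and Tap1 from -0.0226 to 0.19. Without read depth, no detection limit can be given for members under 1 FPKM.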

Other observations

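Psmb6, the constitutive counterpart of Psmb9, was listed at 20.1 FPKM in control replicate 3 and at 67.5 to 75.4 FPKM in the other 5 libraries. It was chosen after its values were seen. Its log2 fold change of 0.71 had an interval of -0.25 to 1.68 (limma adjusted p = 0.24).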
